A study of Mus musculus with 6 samples.

Results

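The comparison described here sets the left ventricles of mice after 1 week of transverse aortic constriction (1 W TAC) against those of sham-operated mice (Sham). Its members are 4 of the 6 arrays of the series, namely the 2 arrays titled as 1 week of TAC and the 2 titled as sham, and the 14996 of 23332 rows of the deposited table that carry exactly 1 gene symbol. All mice were male C57BL/6, and each array held the left ventricle RNA of 1 mouse. The 1 W TAC mice had the transverse aorta tied around a needle, and the Sham mice went through the same operation without constriction. The other 2 arrays, from mice after 4 weeks of TAC (4 W TAC), entered the estimate of the spread and are given beside some genes. The values are log2 signals of Affymetrix GeneChip Mouse Exon 1.0 ST arrays, summarised per gene by robust multi-array averaging (RMA), a procedure that corrects the background, gives all arrays the same distribution and combines the probes of a gene. A difference of 1 on this scale is a 2-fold difference in signal, and a log2 ratio below is the 1 W TAC mean minus the Sham mean. The sources used here do not say how long after surgery the Sham mice were collected. All cells of the ventricle were ground up together, so that more cells of a type and more RNA per cell cannot be told apart.

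Constriction of the aortic arch makes the left ventricle pump against a higher pressure. As background, the first week is known as the phase in which cardiomyocytes enlarge and take up fetal genes such as those for natriuretic peptides and skeletal actin, resident fibroblasts become matrix-producing cells, and monocytes enter the tissue. The adult ventricle lives mainly on fatty acids burnt in mitochondria, and the genes of this pathway are known to decline under pressure load.

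The arrays were alike in scale. The first quartile of all rows lay between 3.60 and 3.66, the median between 5.35 and 5.43 and the third quartile between 6.85 and 7.09 on the 4 arrays. Pearson's correlation over genes, which are no independent replicates, was 0.988 between the 1 W TAC arrays, 0.984 between the Sham arrays and 0.968 to 0.980 between an array of each group. The tissue label was borne out by its markers: 13 of 18 fixed markers of ventricular cardiomyocytes were measured by a row with 1 gene symbol, and their mean signal was 11.6 on both 1 W TAC arrays, against 11.8 on both Sham arrays. Odorant receptors, which are genes of the nose, served as a yardstick of signals that say little about the heart. Their 712 genes had a median signal of 2.79 and a median log2 ratio of 0.002. Of them, 11 were at least 2-fold higher and 9 at least 2-fold lower without overlap of the arrays. These are 1.54% and 1.26%, against 2.31% and 0.619% of all genes. Genes at least 2-fold lower were thus more frequent among odorant receptors than among all genes. Sham replicate 1 stood apart in genes of fat. Ucp1, the uncoupling protein that defines brown fat, had a log2 signal of 4.40 and 4.18 on the 1 W TAC arrays, against 8.21 and 4.19 on the Sham arrays, and Adipoq, the adipocyte hormone adiponectin, had 3.74 and 3.91 at 1 W TAC, against 5.27 and 3.53 in Sham.

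Pressure load for 1 week was accompanied by more higher than lower genes of large size. By description, 345 rows (343 genes) were at least 2-fold higher at 1 W TAC with both of its arrays above both Sham arrays (2.30% of 14996), and 93 rows (92 genes) were at least 2-fold lower with both arrays below (0.620%). In either direction, this made 2.92%. Separation of the groups alone, at any size, was common, with 42.4% of rows, since 2 against 2 values often do not overlap. The median log2 ratio of all 14860 genes was 0.01, with quartiles of -0.16 and 0.19 and a range from -2.47 to 5.79. With limma, fitted to the 6 arrays with 1 mean per group with Benjamini-Hochberg adjustment over the whole table of 23332 rows, 0 rows with 1 gene symbol passed an adjusted p of 0.05 in either direction (0% of 14996), while 1066 higher rows (7.11%) and 731 lower rows (4.87%) had an unadjusted p under 0.05. When the rows with 1 gene symbol were fitted alone, 205 were higher (1.37%) and 63 lower (0.420%) at an adjusted p under 0.05, the smallest of them at log2 ratios of 0.82 and -0.84. The 2 fits differed in the number of rows adjusted for and in the prior that limma lends to each row, with an SD of 0.219 on 2.68 degrees of freedom over all rows and of 0.190 on 4.64 over rows with 1 gene symbol. Genes are therefore called higher or lower here by their values, and an adjusted p is given with the fit it comes from. An exact permutation test of 2 against 2 arrays cannot give a two-sided p below 0.33.

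**Figure D1:**
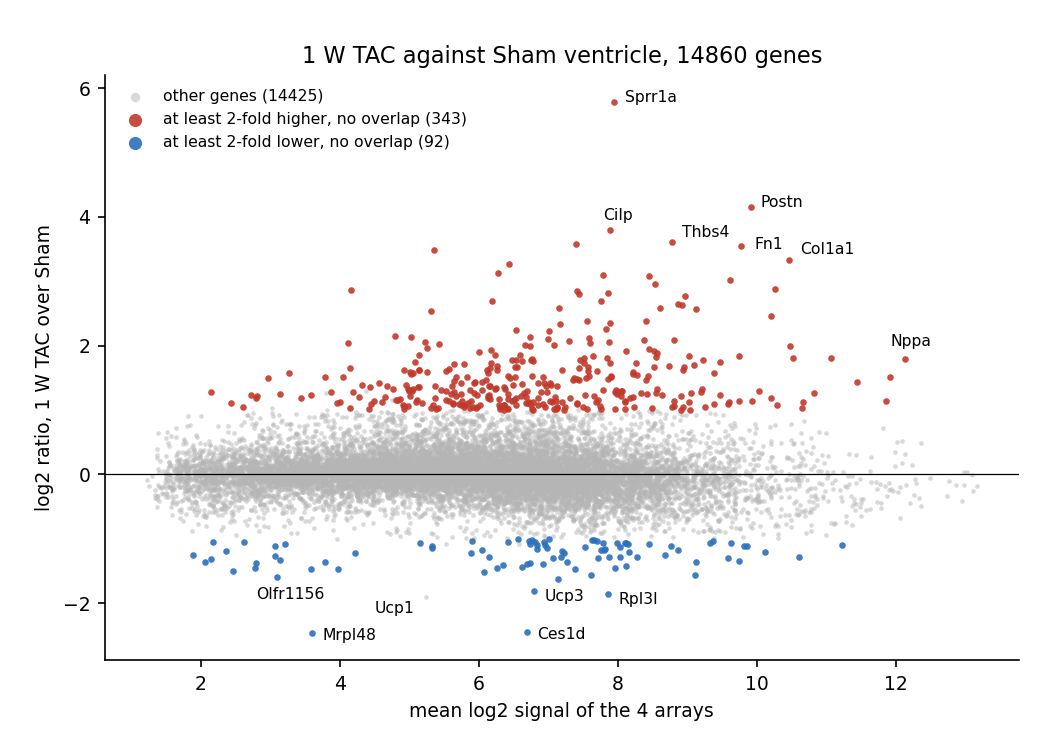
Log2 ratio of 1 W TAC over Sham (y axis) against the mean log2 signal of the 4 arrays (x axis), 1 point per gene. Red points are the 343 genes at least 2-fold higher and blue points the 92 genes at least 2-fold lower without overlap of the arrays, and grey points are all other genes. The higher genes reach 5.79 (Sprr1a), the lower genes -2.47 (Mrpl48).

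The genes with 2-fold differences were not spread evenly over the range of signals. When genes were cut by mean signal into 5 bins of equal size, the bin with the highest signal held 122 higher and 38 lower genes, and the bin with the lowest signal 16 and 18. In that lowest bin, with mean signals up to 4.09, higher and lower genes were thus about equally frequent.

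The highest ratio of the table was that of Sprr1a, which encodes a small proline-rich protein of the cornified envelope of skin and is known in cardiomyocytes as a gene of stress. Its log2 signal was 10.17 and 11.52 at 1 W TAC, against 4.96 and 5.15 in Sham. This is a log2 ratio of 5.79 (SE 0.43), or 55.3-fold, with limma's adjusted p of 0.0587 over all rows and 0.00202 with 1-symbol rows alone. The family it belongs to lies side by side in the genome and is made of similar short repeats, so that shared hybridisation between its members is a possible concern. The other 11 small proline-rich genes measured had log2 ratios between -0.52 (Sprr2i) and 0.56 (Sprr2k). The signal of Sprr1a on the 4 W TAC arrays was 6.54 and 6.57.

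The stretch before the Sprr1a start is shown because this gene leads the comparison. The 250 bases upstream of its start in RefSeq (GRCm38.p6, chr3:92485882-92486131, minus strand, written along the gene) hold 2 copies of TGAGTCA, the letters that AP-1 factors are known to bind, at 146 and 116 bases before the start, and TATAAA at 43 bases before it. Capitals mark these matches.
Sprr1a: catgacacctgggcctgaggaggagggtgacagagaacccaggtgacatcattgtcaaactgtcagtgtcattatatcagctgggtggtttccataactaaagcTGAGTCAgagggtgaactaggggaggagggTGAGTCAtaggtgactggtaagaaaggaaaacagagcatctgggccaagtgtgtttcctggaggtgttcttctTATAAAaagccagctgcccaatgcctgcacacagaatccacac
TGACTCA or its reverse complement TGAGTCA was found in 4.46% of the 32851 upstream stretches of this length in the RefSeq table. Among genes on the arrays that had such a stretch, it was found in 21 of 257 genes at least 2-fold higher (8.17%), in 1 of 73 genes at least 2-fold lower (1.37%) and in 560 of 11894 genes in all (4.71%). These shares describe letters in a window and were not tested.

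The rest of the 20 leading genes were mostly matrix genes. Postn, which encodes periostin, a matrix protein of activated fibroblasts, had a log2 signal of 11.67 and 12.31 at 1 W TAC, against 8.06 and 7.61 in Sham, and a log2 ratio of 4.16 (SE 0.38). Fn1, the fibronectin gene, had 11.32 and 11.77 at 1 W TAC, against 8.06 and 7.94 in Sham, and Tnc, the gene of tenascin C, a glycoprotein of remodelling tissue, had 7.86 and 8.28, against 4.75 and 4.87. These are log2 ratios of 3.55 and 3.26. Of the 20 genes, 7 encode collagen chains: Col1a1, Col12a1, Col8a1, Col3a1, Col1a2, Col5a2 and Col14a1, with log2 ratios from 3.33 down to 2.81. Thbs4 (3.61) and Thbs1 (2.77) encode thrombospondins, matrix proteins that bind calcium and growth factors, and Cilp (3.80) and Mfap5 (2.96) a cartilage matrix protein and a microfibril protein.

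Other leading genes code for secreted regulators or for no matrix protein at all. Timp1, an inhibitor of metalloproteinases, had 8.82 and 9.55 at 1 W TAC, against 5.58 and 5.63 in Sham, a log2 ratio of 3.58 (SE 0.28). Sfrp2, a secreted Wnt-binding protein, had a log2 ratio of 3.08, Ptn, the heparin-binding growth factor pleiotrophin, 2.87, and C1qtnf3, a secreted protein of the C1q and TNF superfamily, 3.49. Ptn had 5.25 and 5.93 at 1 W TAC, against 2.70 and 2.74 in Sham, which lie in the range of odorant receptors, so that its ratio is better read as a lower bound. Uchl1, a ubiquitin hydrolase best known from neurons, had 8.41 and 9.27 at 1 W TAC, against 6.01 and 6.07 in Sham. In all 20 genes the groups did not overlap, which the choice of the genes fixes, and the Sham arrays differed from each other by 0.02 to 0.56. Limma's adjusted p lay between 0.0547 and 0.150 over all rows, and 20 of the 20 passed with 1-symbol rows alone.

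**Figure D2:**
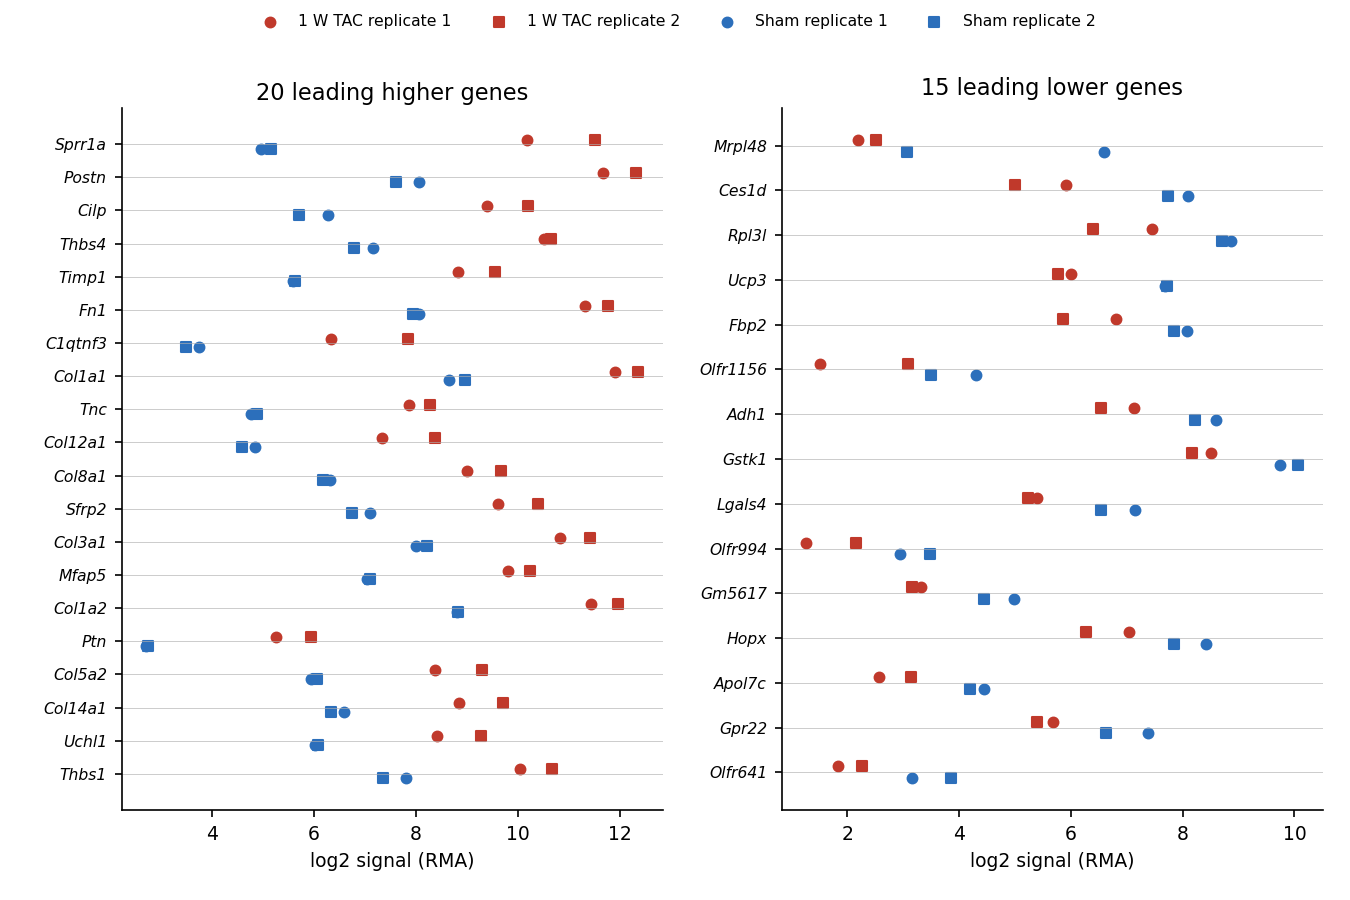
Log2 signal (x axis) of the 20 genes with the highest and the 15 with the lowest log2 ratio among genes without overlap, 1 gene per line. Red symbols are the 1 W TAC arrays and blue symbols the Sham arrays, with circles for replicate 1 and squares for replicate 2. In all 20 higher genes the square of 1 W TAC lies to the right of its circle, and the Sham values of Mrpl48, 6.59 and 3.07, lie far apart.

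The lower genes were fewer and smaller in ratio. Ces1d, a carboxylesterase that splits stored triglycerides, had 5.92 and 5.01 at 1 W TAC, against 8.09 and 7.74 in Sham, a log2 ratio of -2.45 (SE 0.33), or 5.46-fold lower, with limma's adjusted p of 0.141 over all rows and 0.0142 with 1-symbol rows alone. Rpl3l, the muscle form of a protein of the large ribosomal subunit, had 7.45 and 6.40, against 8.86 and 8.71 (-1.86), while the median of the 18 cytosolic ribosomal proteins measured was 0.08. Ucp3, a mitochondrial uncoupling protein of muscle, had 6.00 and 5.77, against 7.68 and 7.72 (-1.82). Fbp2, the muscle fructose bisphosphatase, had 6.80 and 5.86, against 8.07 and 7.84 (-1.63). Ces1d, Ucp3 and Fbp2 are genes of fuel metabolism, and in each of these 4 genes the lower Sham array was more than 2-fold above the higher 1 W TAC array.

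Of the 15 lowest genes, 10 passed with 1-symbol rows alone. Among these were 2 with low signals, Olfr641 and Gm5617 (limma's adjusted p 0.0406 and 0.0433). Of all 712 odorant receptors, 0 were higher and 2 lower past this fit. Adh1, an alcohol and retinol dehydrogenase, and Gstk1, a glutathione transferase of mitochondria and peroxisomes, both had a log2 ratio of -1.57. Lgals4, a sugar-binding galectin, had -1.52, Hopx, a cofactor of serum response factor in the heart, -1.48, and Gpr22, an orphan receptor expressed in heart and brain, -1.46. Hopx did not pass (limma's adjusted p 0.0526 with 1-symbol rows alone). The 3 odorant receptor rows among the 15, Olfr1156, Olfr994 and Olfr641, had signals of 4.30 or less on all 4 arrays, and Gm5617 and Apol7c had 4.98 or less. Mrpl48, a protein of the mitochondrial ribosome, was first by ratio (-2.47, SE 1.30) through Sham replicate 1 alone: it had 2.20 and 2.52 at 1 W TAC, against 6.59 and 3.07 in Sham.

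At 4 W TAC the leading genes mostly had signals between those of 1 W TAC and Sham. This held for 20 of the 20 higher and 13 of the 15 lower genes by group means. Both comparisons use the same Sham arrays and the genes were chosen for their size at 1 W TAC, so nothing is read from the shares. H19, an imprinted noncoding RNA of the embryo, had 8.74 and 9.47 at 1 W TAC and 6.53 and 6.56 at 4 W TAC, against 6.62 and 6.20 in Sham, and Ces1d had 6.31 and 6.09 at 4 W TAC.

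Genes by which cardiomyocytes are known to answer load were taken as a list of 31 genes, of which 25 were measured by a row with 1 gene symbol. Their median log2 ratio was 0.48, against 0.01 over all genes. Without overlap, 9 were at least 2-fold higher (36.0%, against 2.30% of all rows) and 0 at least 2-fold lower. Past limma with 1-symbol rows alone, 5 were higher and 0 lower. This list, like the others, was chosen with earlier results of these data known. The paper names all 9 genes as upregulated in hypertrophy, from data sets that include these arrays. The share of 36.0% is therefore a description and no independent support. Nppa, which encodes atrial natriuretic peptide, had 12.90 and 13.16 at 1 W TAC, against 10.86 and 11.61 in Sham (log2 ratio 1.80, SE 0.28), and Nppb, which encodes B-type natriuretic peptide, had 11.10 and 11.37, against 9.87 and 10.36 (1.12, SE 0.25). Acta1, the skeletal form of alpha-actin, had 12.08 and 12.25, against 10.49 and 10.98 (1.43, SE 0.24). These 3 were already among the strong signals of the Sham ventricle. The highest of the list was Gpx3, a secreted glutathione peroxidase, with 11.21 and 11.75 at 1 W TAC, against 9.57 and 9.39 in Sham (2.00), followed by Nppa and by Fhl1, a LIM protein of the sarcomere (1.75). Rcan1, an inhibitor and target of calcineurin, had 1.24, and Des, the desmin gene, 1.15. At the lower end stood Kcnip2 and Kcnd2, subunits of the channel for the transient outward potassium current, with -0.71 and -0.66, and Pln, the phospholamban gene, with -0.41. Atp2a2, the calcium pump of the sarcoplasmic reticulum, had 12.69 and 12.47 at 1 W TAC, against 12.98 and 12.84 in Sham, a difference (-0.33, SE 0.17) that did not pass in either fit. The myosin heavy chain genes of the heart were not named by a row with 1 gene symbol and are not analysed here.

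The stretch before Acta1 is shown because this gene is a classic member of the fetal group and its promoter is known to work through serum response factor and TEAD factors. The 250 bases upstream of its start in RefSeq (GRCm38.p6, chr8:123894776-123895025, minus strand) hold a CArG box (serum response factor) at 73 bases before the start, CATTCC, the reverse complement of GGAATG (TEAD factors), at 46 bases before it, and TATAAA near its end, all in capitals.
Acta1: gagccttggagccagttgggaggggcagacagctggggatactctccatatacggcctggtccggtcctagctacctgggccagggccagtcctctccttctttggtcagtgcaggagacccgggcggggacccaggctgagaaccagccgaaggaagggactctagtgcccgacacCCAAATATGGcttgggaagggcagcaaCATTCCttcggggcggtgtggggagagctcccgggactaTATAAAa
On either strand, a CArG box was found in 1.40% of the 11894 genes with a stretch, in 1.95% of the 257 higher genes and in 2.74% of the 73 lower genes. GGAATG was found in 13.3%, 15.2% and 13.7%. The higher genes as a group were thus close to all genes for both motifs.

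Skeletal and embryonic muscle isoforms did not follow Acta1. Of 34 listed genes 22 were measured, with a median of 0.01. Tnnt3, the fast skeletal troponin T, had 5.94 and 6.97 at 1 W TAC, against 5.56 and 5.54 in Sham (0.91, SE 0.34), and Casq1, the skeletal calsequestrin, had 0.36. Myl7, the atrial myosin light chain, was the lowest, with 6.74 and 6.33, against 7.59 and 8.06 (-1.29, SE 0.42, limma's adjusted p 0.134 with 1-symbol rows alone). Signals of the 16 measured genes of the dystrophin complex and of membrane repair stayed within 0.60 (Bin1 and Dysf) and -0.67 (Ano5), with 0 at least 2-fold apart.

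Collagens are the main fibres and sheets of the matrix. Of 39 collagen genes, 17 were at least 2-fold higher and 0 lower (43.6%, against 2.30% of all rows), 16 passed as higher with 1-symbol rows alone, and the median log2 ratio was 0.53. The collagens differed widely among themselves. Col1a1, a chain of type I collagen, had 11.91 and 12.36 at 1 W TAC, against 8.64 and 8.97 in Sham, whereas the first quartile of the list was 0.19 and the lowest member had -0.13. Collagen and matrix genes best known from tendon and cartilage had a median of 0.54 over 33 of 40 listed genes, with 12 at least 2-fold higher (36.4%) and 1 lower (3.03%, against 0.620% of all rows). Among them were Aspn, the leucine-rich proteoglycan asporin, with 9.61 and 10.20 at 1 W TAC, against 7.52 and 7.12 in Sham (2.59), Ltbp2, a latent TGF-beta binding protein (2.58), Sparc, a collagen-binding glycoprotein (1.81), and Mgp, an inhibitor of calcification (1.71). Chad, the cartilage protein chondroadherin, was the exception, with 6.31 and 6.12, against 7.86 and 6.63 (-1.03), where the Sham arrays differed by more than the gap between the groups. Fibroblast markers were higher alongside the matrix genes. Of these markers, Col1a1, Col1a2, Col3a1 and Col5a1 also stand among the collagens, and Postn among the tendon and cartilage genes. The mean signal of the 16 fibroblast markers was 9.37 and 9.59 at 1 W TAC, against 7.96 and 7.89 in Sham. Their part in the ratios of the matrix genes was not tested.

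Enzymes that build and sulfate glycosaminoglycans, the sugar chains of proteoglycans, differed less. Of 43 measured genes 2 were at least 2-fold higher (4.65%, against 2.30% of all rows) and 0 lower, with a median of 0.26 and 33 ratios above 0, against 51.7% of all rows. The 2 were Sulf1, which takes sulfate groups off heparan sulfate outside the cell, with a mean of 8.34 at 1 W TAC, against 6.57 in Sham (1.77, SE 0.36), and Dse, an epimerase that makes dermatan sulfate, with 6.04 and 6.58, against 5.09 and 4.77 (1.38, SE 0.28). Sulf2, the relative of Sulf1, had 0.96 (SE 0.17), and the lowest of the list was Extl1, a glycosyltransferase of heparan sulfate, with -0.60.

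Proteases and their inhibitors were both higher at 1 W TAC in some members. Among 55 ADAM, ADAMTS and metalloproteinase genes, 4 were at least 2-fold higher (7.27%, against 2.30% of all rows) and 0 lower. They were led by Mmp14, the membrane-bound collagenase, with 8.50 and 8.99 at 1 W TAC, against 6.41 and 6.31 in Sham (2.39, SE 0.21), and Mmp2, the gelatinase that it activates, with 9.94 and 9.96, against 8.19 and 8.02 (1.85). Of 29 measured protease inhibitors 5 were higher (17.2%) and 1 lower (3.45%, against 0.620% of all rows). Serpina3n, an inhibitor of serine proteases, had 9.61 and 10.76, against 7.48 and 7.61 (2.64, SE 0.47), and Serpinf1, pigment epithelium-derived factor, had 1.54. The lower one was Timp4, the inhibitor of metalloproteinases that is most abundant in heart, with 7.37 and 7.09 at 1 W TAC, against 8.65 and 8.71 in Sham (-1.45, SE 0.18, limma's adjusted p 0.136 over all rows and 0.0132 with 1-symbol rows alone). Timp1 and Timp4 thus lay at opposite ends of the same list. Cathepsins, proteases of the lysosome, had 4 of 22 genes at least 2-fold higher (18.2%) and 0 lower, with Ctss at 9.16 and 9.67, against 7.21 and 7.45 (2.09), and Ctsk at 7.15 and 7.55, against 5.84 and 5.52 (1.67). Ctss is a gene of macrophages, whose markers were higher too, with a mean signal of 7.14 and 7.58 at 1 W TAC, against 6.15 and 6.07 in Sham, and their part in the result was not tested.

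Growth factors and cytokines were selective. Of 101 listed genes 88 were measured, with a median of 0.07. At least 2-fold higher were 10 (11.4%, against 2.30% of all rows), and 2 were lower (2.27%, against 0.620%). Sfrp2 and Ptn had the highest ratios. Of other secreted Wnt-binding proteins, Sfrp1 had 8.57 and 9.36 at 1 W TAC, against 6.78 and 6.62 in Sham (2.27, SE 0.28), and Frzb had 7.96 and 8.15, against 6.23 and 5.66 (2.11, SE 0.26), whereas Wif1 had 6.00 and 5.60, against 6.53 and 6.09 (-0.51, SE 0.24). Fstl1, a follistatin-like glycoprotein, had 10.21 and 10.62, against 7.93 and 7.77 (2.57, SE 0.35). The TGF-beta genes differed in size, with 1.81 for Tgfb3, 1.79 for Tgfb2 and 0.94 for Tgfb1. Igf1, insulin-like growth factor 1, had 6.29 and 6.44, against 4.87 and 4.95 (1.46, SE 0.18). The lower ones were Penk, the enkephalin precursor, with 7.57 and 6.91, against 8.58 and 8.46 (-1.28, SE 0.55), and Angpt1, a growth factor for vessels, with 6.35 and 6.16, against 7.44 and 7.11 (-1.02, SE 0.20). Adm, the vasodilator peptide adrenomedullin, had -0.98.

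Of 71 measured receptors of growth factors and cytokines 5 were at least 2-fold higher (7.04%, against 2.30% of all rows) and 0 lower, with a median of 0.26. The highest were receptors of leukocytes: Il10ra, with 6.63 and 7.23 at 1 W TAC, against 5.13 and 5.48 in Sham (1.63), Csf1r, the receptor for macrophage colony-stimulating factor (1.28), and Tnfrsf1b, a receptor for tumour necrosis factor (1.21). Egfr, the epidermal growth factor receptor, had 1.07 and Osmr, the oncostatin M receptor, 1.02. Agtr1a, the main angiotensin II receptor of the mouse, was lowest with a mean of 8.17 at 1 W TAC, against 8.96 in Sham (-0.79, SE 0.22, limma's adjusted p 0.108 with 1-symbol rows alone). Of 58 measured feedback regulators 4 were higher (6.90%) and 0 lower. They were Nkd2, an inhibitor of Wnt signalling (1.37), Rcan1, Pmepa1, an inhibitor of TGF-beta signalling (1.13), and Rgs10, a brake on G proteins (1.01). Rgs2, which restrains the signals of Gq-coupled receptors, had -0.51, and Dusp1, a phosphatase of MAP kinases, -0.31. The integrins are receptors that anchor cells to the matrix. Of 20 integrin genes 3 were at least 2-fold higher, against 2.30% of all rows, and 0 lower, with a median of 0.40. These were Itga11, a collagen receptor of fibroblasts, and the leukocyte integrins Itgam and Itgb2, with 1.07, 1.21 and 1.07.

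Transcription factors of growth and remodelling had 7 of 93 measured genes at least 2-fold higher (7.53%, against 2.30% of all rows) and 1 lower (1.08%, against 0.620%), with a median of 0.20. Meox1, a homeobox factor of activated fibroblasts, came first with 8.74 and 9.37 at 1 W TAC, against 6.74 and 6.68 in Sham (2.35, SE 0.24). Scx, the tendon factor scleraxis, had 7.90 and 8.12, against 6.06 and 6.71 (1.63), Runx1, a factor of blood and bone that is also found in dedifferentiating cardiomyocytes, had 6.70 and 7.45, against 5.56 and 5.35 (1.62), and Myc had 6.85 and 7.71, against 5.70 and 5.85 (1.51). The factors of adult metabolism lay at the lower end: Rxrg, a retinoid receptor (-0.86), Klf15 (-0.77), Ppara, the receptor that drives fatty acid genes (-0.71), and Ppargc1a, the coactivator of mitochondrial genes, with 8.83 and 8.49, against 9.58 and 9.12 (-0.69), none of which passed in either fit. Mef2d was the only factor of the list at least 2-fold lower without overlap (-1.22, SE 0.50), with 3.40 and 3.82, against 5.46 and 4.20, where Sham replicate 1 set most of the difference.

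Immediate early genes are those that cells switch on within minutes of a stimulus. Of 26 measured genes 21 had a ratio above 0, against 51.7% of all rows, with a median of 0.39. At least 2-fold higher were 3 (11.5%, against 2.30% of all rows) and 0 were lower. The 3 were Myc, Egr2, with 6.12 and 6.23, against 5.21 and 4.94 (1.10, SE 0.19), and Atf3, with 6.76 and 7.09, against 5.87 and 5.92 (1.03, SE 0.18). These 3 passed with 1-symbol rows alone. Fos had 6.03 and 5.64, against 5.20 and 5.58 (0.45), without overlap but less than 2-fold higher. Jun had 7.83 and 7.81, against 7.82 and 7.51 (0.16), and its groups overlapped.

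Genes of biosynthesis, by which a growing tissue makes its parts, lay close to the middle of all genes. The medians were 0.01 for 15 aminoacyl-tRNA synthetases, -0.01 for 35 genes of ribosome biogenesis, 0.05 for 29 genes of nucleotide and polyamine synthesis, 0.03 for 28 genes of sterol synthesis and uptake and 0.10 for 29 genes of serine, one-carbon and amino acid stress metabolism. In the first 4 of these lists 0 genes were at least 2-fold apart without overlap in either direction, and in the last 1 was higher (Atf3). The narrowest quartiles of these 5 lists were those of ribosome biogenesis, which ran from -0.46 (Nop10) to 0.25 (Bop1), with quartiles of -0.12 and 0.05, against -0.16 and 0.19 for all genes. Among the nucleotide genes, the highest ratios were those of Dck (0.87), Tk1 (0.83) and Tyms (0.76), and the lowest that of Ppat, the first enzyme of purine synthesis (-0.68), and none of the 4 passed in either fit. Fads2 and Scd2, desaturases of fatty acids, had 0.90 and 0.87, whereas Fdft1, squalene synthase, had -0.75.

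Among imprinted growth genes, of which 20 of 30 were measured, H19 alone was at least 2-fold higher (2.70, SE 0.29) and the median was 0.28. Gatm, an enzyme of creatine synthesis, had 0.93, Ndn 0.75 and Peg3 0.70, and the growth inhibitor Cdkn1c was the lowest at -0.54. Igf2, the growth factor gene beside H19, had 7.01 and 6.80 at 1 W TAC, against 6.66 and 6.66 in Sham (0.25, SE 0.17).

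Mitochondrial genes lay below 0 nearly throughout, with small sizes. Of 31 measured genes of fatty acid oxidation and ketone use, 29 had a ratio below 0, against 47.6% of all rows, 28 had both 1 W TAC arrays below both Sham arrays, against 20.4% of all rows, and the median was -0.78. At least 2-fold lower were 3 (9.68%, against 0.620% of all rows). With 1-symbol rows alone, 5 passed as lower, against 0.420% of all rows, and 0 as higher. Besides Ucp3, these included Acaa2, the last enzyme of the mitochondrial cycle, with 10.15 and 9.80 at 1 W TAC, against 11.40 and 11.11 in Sham (-1.28, SE 0.20), and Eci1, an isomerase for unsaturated fatty acids, with 9.71 and 9.32, against 10.70 and 10.73 (-1.20, SE 0.23). Only Slc27a4, a transporter, and Bdh1, a ketone enzyme, lay above 0, with 0.16 and 0.10. Complex I of the respiratory chain was lower in 27 of 27 measured subunits by the group means and in 26 without overlap, and none was 2-fold lower. Its median was -0.55 with quartiles of -0.64 and -0.43, and the subunits ran from -0.84 (Ndufs6) to -0.14 (Ndufa13). The 68 measured proteins of the mitochondrial ribosome had a median of -0.37 and 65 ratios below 0. In complex I, 16 of 27 subunits were lower with an unadjusted p under 0.05 from limma, against 4.87% of all rows. In the mitochondrial ribosome, 18 of 68 proteins were. With 1-symbol rows alone, 0 of either passed. The genes of a pathway share arrays and are not independent of each other. Markers of ventricular cardiomyocytes were lower by much less, with a median of -0.10 over 13 genes, and their part in these ratios was not tested. Markers of brown fat, a tissue rich in mitochondrial genes, were lower too, with a median of -0.69, and markers of adipocytes of any kind had -0.42. Both were lower mainly through Sham replicate 1. Without that array the median was -0.67 for fatty acid oxidation, -0.53 for complex I and -0.33 for the mitochondrial ribosome.

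Enzymes of detoxification and of oxidation and reduction had a median of -0.40 over 63 measured genes. At least 2-fold higher were 3 (4.76%, against 2.30% of all rows), and 7 were lower (11.1%, against 0.620%). The lower ones were led by Adh1 and Gstk1, followed by Inmt, a methyltransferase (-1.42), and Dhrs7c, a dehydrogenase of the muscle reticulum, with 8.80 and 8.11 at 1 W TAC, against 9.80 and 9.82 in Sham (-1.36, SE 0.25). The 3 higher ones were Aldh1a2, which makes retinoic acid and is known from the epicardium, with 6.97 and 8.33, against 5.62 and 5.20 (2.24, SE 0.45), Hmox1, haem oxygenase (1.40), and Cyp1b1, a cytochrome P450 (1.15). Among the 46 cytochrome P450 genes Cyp1b1 was the only gene at least 2-fold apart. Adh1 and Aldh1a2, enzymes of consecutive steps from retinol to retinoic acid, thus lay on opposite sides.

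**Figure D3:**
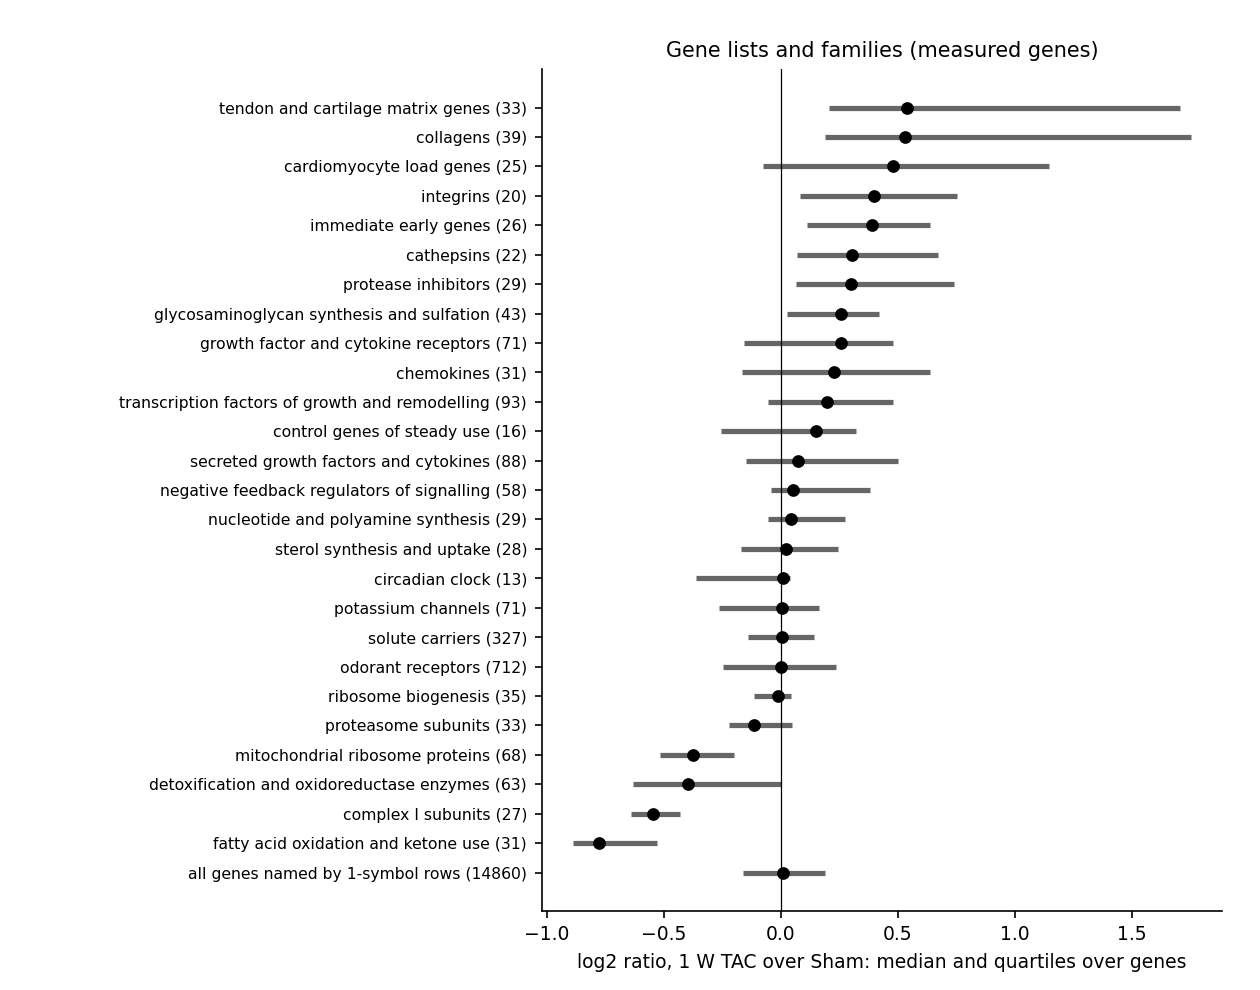
Median (point) and quartiles (bar) over the measured genes of 26 lists and families, cell type markers and small families left out, as log2 ratio of 1 W TAC over Sham, with the number of measured genes in brackets and all genes in the bottom line. The bar shows the spread over genes and not the error between mice. Tendon and cartilage matrix genes (0.54) and collagens (0.53) stand at the top of those shown, and complex I (-0.55) and fatty acid oxidation (-0.78) lie below the other lists shown.

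Transporters and channels had a centre at 0 and few large differences. The 327 solute carriers had a median of 0.01, with 0 at least 2-fold higher and 1 lower (0.306%, against 0.620% of all rows). This was Slc36a2, an amino acid transporter (-1.16). Of 71 potassium channel genes 0 were higher and 2 lower (2.82%). They were Kcnj3, a subunit of the acetylcholine-gated channel that is best known from the atrium, with 8.07 and 7.19 at 1 W TAC, against 8.99 and 8.84 in Sham (-1.29, SE 0.31), and Kcnv2, a modifier subunit, with 4.99 and 4.55, against 6.05 and 5.73 (-1.12, SE 0.22). Kcnn2, a calcium-activated channel, had -0.93 and Kcne4, an inhibitory subunit, 0.86. Among 7 alpha and beta tubulins, the building blocks of microtubules, Tubb2a had 5.15 and 6.58, against 4.26 and 3.16 (2.16, SE 0.76), and Tuba8 had 9.17 and 9.03, against 10.13 and 10.19 (-1.06, SE 0.24), so that the family held members on both sides. Many tubulin genes are near copies of each other, and probes may be shared between them.

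Genes often used as controls in expression studies had no member past the test. Of 24 listed genes 16 were measured by a row with 1 gene symbol, with a median of 0.15 and 0 at least 2-fold apart without overlap. B2m, the light chain of MHC class I, had 11.99 and 12.36 at 1 W TAC, against 11.38 and 11.54 in Sham (0.72, SE 0.36), Actb, cytoplasmic actin, had 11.14 and 11.32, against 10.57 and 10.58 (0.66, SE 0.16), and Gusb, a lysosomal enzyme, 0.61. At the lower end, Tfrc, the transferrin receptor, had 6.82 and 7.19, against 8.27 and 7.54 (-0.90, SE 0.33), and Sdha, a subunit of succinate dehydrogenase, had 11.17 and 10.75, against 11.69 and 11.51 (-0.64, SE 0.25). With 1-symbol rows alone, limma's adjusted p was 0.350 for B2m, 0.0892 for Actb, 0.131 for Gusb, 0.188 for Tfrc and 0.230 for Sdha. Genes of the circadian rhythm had a median of 0.01 over 13 genes, and their lowest members were Dbp (-0.68) and Hlf (-0.66), output factors of the clock. The hour at which tissue was collected is unknown here.

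Markers of the cell types that a ventricle holds separated the groups for fibroblasts and macrophages. Of 16 fibroblast markers 9 were at least 2-fold higher (56.2%, against 2.30% of all rows) and 0 lower, and all 9 passed with 1-symbol rows alone. The ones not used for matrix were uneven, with Meox1 at 2.35, Thy1 at 1.12, Pi16 at 0.90 and Tcf21, a factor of resting fibroblasts, at 0.60. Below these were Pdgfra at 0.43, Ddr2 at 0.27, Dpep1 at -0.22 and Gsn at -0.84. Of 13 macrophage markers 9 were at least 2-fold higher (69.2%) and 0 lower, 5 passed with 1-symbol rows alone, and the median was 1.25. Adgre1, the F4/80 antigen, had 7.48 and 8.13 at 1 W TAC, against 5.90 and 5.45 in Sham (2.13, SE 0.35), and Cd68 8.08 and 8.50, against 6.94 and 6.64 (2.83-fold). Cd163, a marker of resident macrophages, had 6.07 and 5.88, against 6.00 and 5.92 (0.02), and the groups overlapped. Chemokines, which draw leukocytes, had 5 of 31 genes at least 2-fold higher (16.1%) and 1 lower (3.23%, against 0.620% of all rows). Among them, Cxcl10 was at 7.01 and 8.03, against 5.33 and 6.00 (1.86, SE 0.41), and Ccl11, the eosinophil chemokine eotaxin, at 5.60 and 5.40, against 7.10 and 6.48 (-1.29, SE 0.31).

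Other cell types stood closer to 0. Endothelial markers had a median of -0.12 over 18 genes, from -0.65 (Fabp4, a gene of fat cells as well, with 6.90 and 6.78 at 1 W TAC, against 7.84 and 7.14 in Sham) to 0.48 (Cldn5), with 0 at least 2-fold apart. Of the smooth muscle and pericyte markers, Cnn1, calponin, had 7.32 and 8.04, against 6.34 and 6.00 (1.51, SE 0.28), whereas Acta2 and Tagln, the other classic genes of the contractile state, had -0.09 and -0.02, and Myh11, smooth muscle myosin, had -0.90. Of the 13 genes of this list 2 were at least 2-fold higher, Cnn1 and Des (15.4%, against 2.30% of all rows), and 1 lower, the potassium channel subunit Abcc9 (-1.03). Of 12 lymphocyte markers only Ccl5 was at least 2-fold higher (1.57), and Cd3e had 5.26 and 5.17, against 4.27 and 5.11. Of 11 neutrophil markers only Lcn2 was, with 5.80 and 7.86, against 5.61 and 5.13 (1.46, SE 0.65), and most of it came from 1 W TAC replicate 2. S100a8, a granule protein, had signals of 2.56 or less on all 4 arrays. Fat markers differed between the Sham arrays themselves. The mean signal of 9 brown fat markers was 6.29 and 6.21 at 1 W TAC, against 7.30 and 6.59 in Sham, and that of 12 markers of any adipocyte was 6.21 and 6.18, against 6.88 and 6.25. Without Sham replicate 1 the medians of these lists were -0.14 and -0.01, against -0.69 and -0.42 with it. Ucp3, Plin5 and Ppargc1a of the brown fat list are genes of the cardiomyocyte as well.

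**Figure D4:**
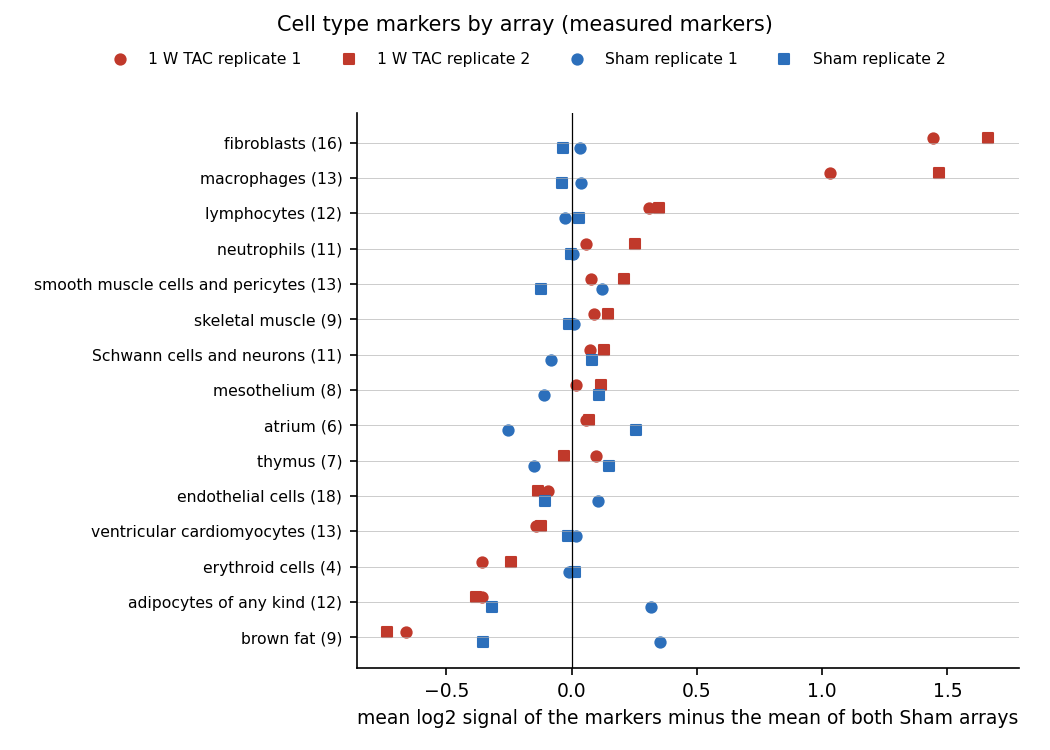
Mean log2 signal of the measured markers of each cell type (number in brackets) on each array, minus the mean of both Sham arrays. Red symbols are 1 W TAC and blue symbols Sham, with circles for replicate 1 and squares for replicate 2. Fibroblast and macrophage markers are set apart from Sham on both 1 W TAC arrays, while the adipocyte and brown fat markers differ most between the Sham arrays.

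The 1 W TAC arrays differed in their distance from Sham. Each array held 1 mouse, so that a difference between mice and one between arrays cannot be told apart. Replicate 2 was farther from the Sham mean than replicate 1 in 328 of the 343 genes at least 2-fold higher (95.6%) and in 72 of the 92 genes at least 2-fold lower (78.3%). Over all 14860 genes replicate 2 had the higher signal in 62.6% and the lower signal in 5325 genes. The median log2 ratio to the Sham mean was 1.08 in replicate 1 and 1.65 in replicate 2 for the higher genes, and -1.07 and -1.36 for the lower genes. The genes were chosen from these arrays, so that the shares are a description. The gap was not the same in all genes: Thbs4 had 10.52 and 10.64 and Mmp2 9.94 and 9.96, whereas Sprr1a, C1qtnf3, with 6.34 and 7.85, and Aldh1a2 differed by over 1. Kinesins of cell division were among those with the gap, with Kif23 at 5.29 and 6.15, against 4.43 and 4.37 in Sham, and Kif11 at 4.85 and 5.66, against 4.03 and 4.07. The largest gap between the 1 W TAC arrays of any gene was that of Pclaf, a factor of DNA replication, with 3.74 and 6.32, against 4.16 and 3.30 in Sham. Vmn1r27, Vmn1r183, Nat1 and Olfr814 followed, with signals of 5.21 or less on all 4 arrays. Between the Sham arrays the largest gaps were those of Ucp1, Mrpl48, Olfr61, Car3, a carbonic anhydrase of fat and muscle (5.87 and 6.20 at 1 W TAC, against 8.64 and 5.59 in Sham), and Krtap1-5. Without 1 W TAC replicate 2, 259 rows were at least 2-fold higher and 92 lower, and without 1 W TAC replicate 1, 572 and 155.

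**Figure D5:**
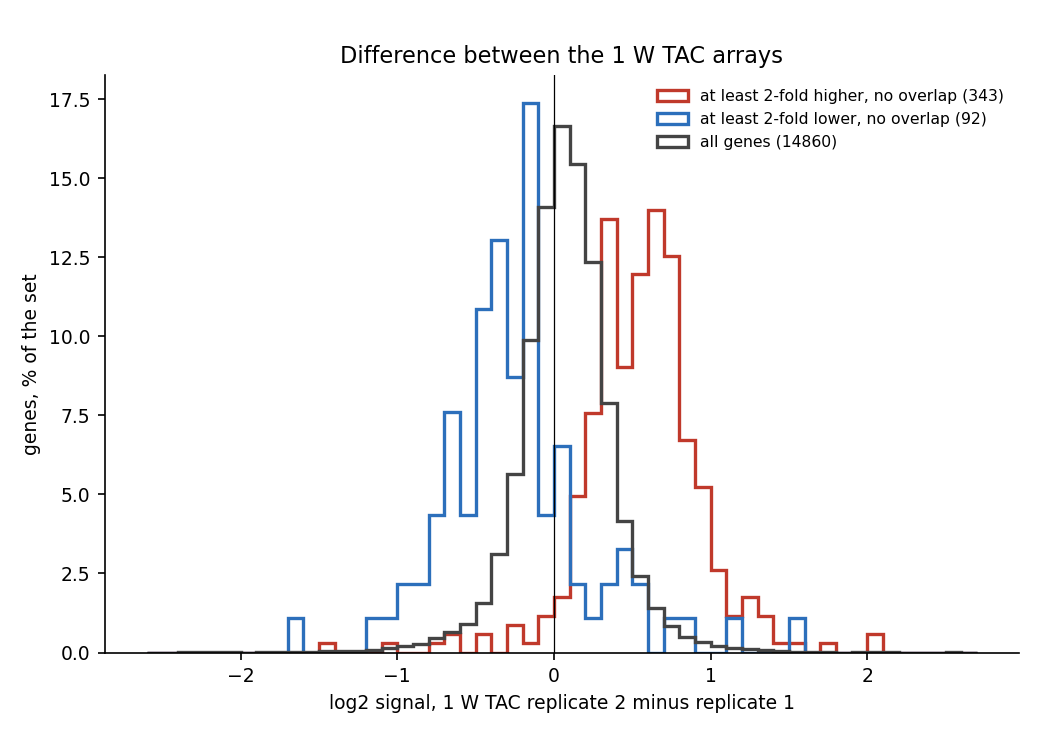
Distribution over genes of the log2 signal of 1 W TAC replicate 2 minus replicate 1 (x axis), as percent of each set (y axis). The red line is the 343 genes at least 2-fold higher, the blue line the 92 genes at least 2-fold lower and the dark line all 14860 genes. The medians are 0.58, -0.28 and 0.08.

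Families read for comparison were mostly centred near 0. Medians were -0.06 for 198 zinc finger proteins, -0.12 for 33 proteasome subunits, 0.06 for 36 keratins and 0.07 for 46 cytochrome P450 enzymes. Annexins, which bind membranes in the presence of calcium, had a median of 0.50 over 12 genes. Of these, Anxa2 (1.19) and Anxa1 (1.04) were at least 2-fold higher (16.7%, against 2.30% of all rows). The S100 proteins had 0.22 over 12 genes and the kinesins 0.22 over 27. Of the kinesins, Kif23, Kif11 and Kif26b were at least 2-fold higher (11.1%, against 2.30% of all rows). Krt18, a keratin of simple epithelia, was the highest keratin (1.24). Receptors of taste and of the vomeronasal organ, and defensins, had medians of -0.03 over 34, -0.08 over 82 and -0.02 over 21 genes. Among these 3 families, 1 vomeronasal receptor, Vmn1r72 (-1.28), was at least 2-fold lower and no other gene was at least 2-fold apart. Markers of Schwann cells and neurons (0.04 over 11 genes), mesothelium (-0.02 over 8), skeletal muscle (0.03 over 9) and thymus (0.03 over 7) lay near 0 as well, with Krt18 the only one of them at least 2-fold apart. Of the atrial markers 6 were measured, with Nppa higher and Myl7 lower, and of the erythroid markers 4, with Alas2, the haem synthesis enzyme of red cells, lower (5.60 and 6.39 at 1 W TAC, against 7.39 and 7.38 in Sham).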

How the data were processed

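The deposited table holds log2 signals per gene from Affymetrix GeneChip Mouse Exon 1.0 ST arrays, made by the authors with Affymetrix Expression Console and RMA, for which no versions are given; the sources used here give neither genome build nor annotation of the rows. RNA was isolated with Trizol per the labels and with a column kit per the methods. Rows with exactly 1 gene symbol were used, and a gene with several such rows was taken from the one with the highest mean. Limma 3.58.1 (lmFit and eBayes, R 4.3.3) was fitted to the 6 arrays with Benjamini-Hochberg adjustment over all 23332 rows, and checked on simulated data. Each group had 2 arrays, whose number limits the precision, and p-values measure the spread between these mice. Named are the 20 highest and 15 lowest genes without overlap, up to 4 members at each end of a list and those needed for what they are known for, and the 5 largest gaps between replicates; genes named beside a count of 5 or fewer were chosen after their values were seen. Members and the 21 gene lists, 15 marker lists and 24 symbol families were chosen with earlier results of these data known, and the patterns of the families were narrowed after the table was seen. Lists were described and not tested. The result of 1 family is not reported here. Upstream sequences are RefSeq's (GRCm38.p6). Tables and figures used Python 3.11.15, pandas 2.3.3 and matplotlib 3.10.9. Alternatives covered the rows and arrays fitted, the prior, the replicate block, a filter on low signals, centring, quantile normalization and the methods' t-test.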

Additional observations from a re-analysis of the deposited data

Results flagged for a closer look

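Of the 8336 rows that carry no gene symbol or several, which the comparison left out, 151 were at least 2-fold higher and 292 at least 2-fold lower at 1 W TAC without overlap of the arrays. Lower rows thus outnumbered higher ones there, the other way round from the rows with 1 gene symbol (345 higher and 93 lower). They include the only row of the whole table past limma's adjusted p of 0.05 (0.0104 over all rows), which has no symbol and had a log2 signal of 1.11 and 1.38 at 1 W TAC, against 5.70 and 5.62 in Sham.

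Named genes with both 1 W TAC arrays on one side of both Sham arrays and both 4 W TAC arrays on the other side were 4. The log2 ratio to Sham of Igf2 was 0.25 after 1 week and -0.13 after 4 weeks of TAC. That of Tfrc was -0.90 after 1 week and 0.97 after 4 weeks, with signals of 8.58 and 9.16 on the 4 W TAC arrays. Gsn, which encodes gelsolin, an actin-severing protein, had -0.84 after 1 week and 0.36 after 4 weeks, and Cnn1 had 1.51 after 1 week and -0.29 after 4 weeks. Both ratios use the same Sham arrays, and the difference between the times was not tested.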

How the results depend on the processing

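The counts past limma depended on the fit. Against 0 higher and 0 lower rows, there were 205 and 63 with 1-symbol rows fitted alone, 214 and 69 with rows under the median signal left out, and, higher only, 13 with an intensity trend in the prior, 2 with arrays centred on their medians and 3 with quantile normalization. Added after seeing the data, 1-symbol rows alone with an intensity trend gave 255 and 94. Leaving out single arrays gave 0 to 1 higher and 0 to 0 lower, the 1 without 1 W TAC replicate 1. A robust prior and the 4 arrays of 1 W TAC and Sham alone gave 0. The methods' t-test with a fold above 1.5 gave 327 and 228 rows unadjusted and 0 after Benjamini-Hochberg adjustment. Deviations of same-numbered replicates had r = -0.20 between 1 W TAC and Sham, 0.15 between 1 W TAC and 4 W TAC and -0.27 between Sham and 4 W TAC. The third quartile of all rows was 7.06 on 1 W TAC replicate 2, 7.09 on Sham replicate 1 and 7.08 on 4 W TAC replicate 2. On the other array of these groups it was 6.89, 6.85 and 6.93. Whether samples were paired, or arrays shared an effect across groups, cannot be told from these values. The replicate block gave 0 and 0 with 6 arrays and 7 higher with the 4 arrays (added after seeing the data), and crossing the numbers gave 0 and 0.

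Rows at least 2-fold apart without overlap numbered 259 to 572 higher and 91 to 217 lower when single arrays were left out (217 without Sham replicate 2), and 969 and 535 at 1.5-fold. Of 187 named genes, 12 changed sign in an alternative. When single arrays were left out, their ratios ran from -3.92 to 0.10 for Ucp1, -1.45 to 0.30 for Adipoq, -2.61 to 0.45 for Car3 and -0.41 to 2.93 for Olfr61, in each case with the end nearer 0 without Sham replicate 1, and from -1.96 to 0.36 for Vmn1r27, -1.85 to 0.35 for Vmn1r183, -1.53 to 0.62 for Nat1 and -0.16 to 1.96 for Olfr814, with the end nearer 0 without 1 W TAC replicate 2. They ran from -1.48 to 1.11 for Krtap1-5, -0.08 to 0.11 for Cd163, -0.20 to 0.03 for Acta2 and -0.29 to 0.25 for Tagln. Centring gave Cd163 -0.03, and quantile normalization gave it -0.037 and Tagln 0.015. The median of fatty acid oxidation stayed between -0.93 and -0.63, that of complex I between -0.58 and -0.52 and that of collagens between 0.36 and 0.70 when single arrays were left out. Medians of lists near 0 often changed sign, and no order is read among them. The cause of these changes was not tested.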
